A study of Caenorhabditis elegans with 3 samples.

Results

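Fatty acid activation and beta-oxidation genes of Caenorhabditis elegans were examined on 3 two-channel microarrays. The genes were chosen by name: every spot that the platform's annotation assigned to a single gene with a symbol in acs-, acdh-, ech-, maoc-, dhs-, acox-, acaa-, kat- or cpt- and a number was taken, and spots of a gene were averaged on each array. This gave 81 genes on 85 spots, out of 15168 genes with a spot of their own and 20000 spots. RefSeq holds 92 genes that fit the naming rule; acdh-10, acs-13, cpt-1, cpt-3, dhs-5, dhs-9, dhs-13, dhs-14, dhs-15, dhs-24 and ech-7 were not analysed here. All 81 had a value on every array, and no filter on low values was applied. Each array set RNA of hermaphrodites at the fourth larval stage (L4) or young adult stage, from 1 of 3 numbered preps, in channel 2, against RNA of a mixed wild-type reference in channel 1. The labels carry the code TP06, which they do not explain, and give no strain or genotype for the staged animals and no stages for the reference. Whether the preps were separate cultures is not given, so the p-values reflect no more than the spread among the preps, in part pooled over genes. Part of that spread may be technical.

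Values are log2 ratios, and an SD is over the 3 preps (n = 3). Which channel is on top of the ratio is not given in the sources used here. Staged RNA over reference was taken as the likely direction. Channel 2 held the staged RNA throughout, which does not by itself settle it. Read this way, 29 of 30 major sperm protein genes and 3 of 3 adult cuticle collagens were higher. Higher and lower are used in that sense throughout, and with the opposite direction every sign would turn. A gene passed when limma's test of its mean log2 ratio against 0 gave an adjusted p under 0.05, with Benjamini-Hochberg adjustment over all 15119 genes tested. Ratios of different genes are set side by side as differences from the reference, never as levels. In RNA of whole animals, fewer cells of a type and less RNA per cell cannot be told apart.

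Fatty acids are burnt in several steps. An acyl-CoA synthetase (acs) first joins the fatty acid to coenzyme A, and carnitine palmitoyltransferases (cpt) carry long chains into the mitochondrion. There, acyl-CoA dehydrogenases (acdh), enoyl-CoA hydratases (ech), hydroxyacyl-CoA dehydrogenases and thiolases (kat, acaa) shorten the chain by turns. In peroxisomes the first step belongs to acyl-CoA oxidases (acox) and the next to a hydratase of the MaoC type (maoc). Worms use the peroxisomal route to trim the side chains of ascarosides, the small molecules of the dauer pheromone, and in the worm much of fat metabolism takes place in the intestine. The short-chain dehydrogenases (dhs) are a broad family, of which dhs-28 acts in peroxisomal beta-oxidation while others act on steroids, sugars or unknown substrates, so the naming rule reaches beyond the pathway.

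Of the 81 genes, 26 passed as higher in the staged RNA and 4 as lower, and 51 did not pass. As shares, 32.1% of the genes were higher, against 11.3% of all genes tested, and 4.94% were lower, against 9.37%. The smaller share of lower genes depended on the threshold. At an unadjusted p under 0.05 in limma's test, 15 of the 81 genes were lower, against 2472 of all 15119 genes tested. Counting both directions, 37.0% passed, against 20.7% of all genes. The median of the genes' mean log2 ratios was 0.36, against -0.04 over all genes tested; by prep it was 0.46, 0.14 and 0.42 in preps 1, 2 and 3, against 0.04, -0.09 and -0.06. All 3 arrays had 1 sign for 56 of the 81 genes (69.1%, against 52.9% of all genes tested), 39 above 0 and 17 below. Of all 15119 genes tested, 3752 were above 0 on every array and 4246 below. No test over the list was made, and these shares describe it. With prep 1, 2 or 3 left out, 20, 23 or 30 of the 81 genes passed, where 11.6%, 16.8% or 19.2% of all genes did. The 30 without prep 3 were 24 of the first 30 calls and 6 genes that had not passed before. Without prep 1 the count of higher genes was 16 and of lower genes 4, against 7.24% and 4.39% of all genes. Without prep 3 they were 23 and 7, against 10.6% and 8.63% of all genes. In all, 18 of the 30 calls held whichever prep was left out.

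**Figure D1:**
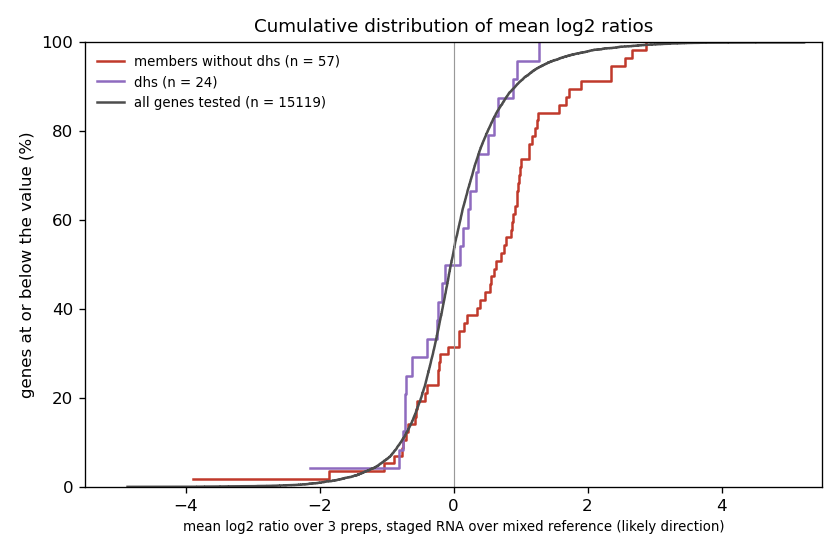
Cumulative share of genes (vertical axis, percent) at or below each mean log2 ratio over the 3 preps (horizontal axis) for the 57 genes outside the dhs family, the 24 dhs genes and all 15119 genes tested. The curve of the 57 genes lies to the right of that of all genes over most of its length (median 0.63 against -0.04), while the dhs curve (median -0.02) runs close to it.

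The staged libraries also differed from the reference in markers of tissues and stages. Of 10 intestinal markers, 7 were higher and 0 were lower in limma's test (also 0 at an unadjusted p under 0.05), or 5 to 7 higher with a prep left out, with medians of 1.15, 1.25 and 1.01 in preps 1, 2 and 3; the brush border actin gene act-5 at 2.17 ± 0.24 and the proton pump gene vha-6 at 2.14 ± 0.47 were the highest, while the gut transcription factor gene elt-2 at -0.09 ± 0.33 did not pass. The part of this shift in the ratios of intestinal enzymes was not tested. Of the stage markers, 3 of 3 adult cuticle collagens were higher. Of 3 further cuticle collagen genes, taken here as the larval set, col-38 at 3.31 and bli-1 at 1.77 were higher and col-36 at -4.36 was lower. That set thus did not move together. All 4 germ line markers were higher, with a median of 2.04, as were 2 of 3 muscle markers, and 0 of 3 yolk genes passed. Sperm markers passed as higher in 29 of 30 major sperm protein genes, and whether spots of that family share signal was not checked. The sperm genes spe-11 at 2.10, spe-26 at 1.04 and spe-9 at 0.78 were higher too. Without prep 3 spe-26 and spe-9 did not pass, nor did spe-9 without prep 1 or prep 2. All 5 neuronal markers were lower. Of 6 oocyte markers 1 was higher, and their medians were 1.86, 0.19 and -0.12 in preps 1, 2 and 3, so the preps differed in this set.

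Acyl-CoA synthetases moved both ways. Of 22 genes, 7 passed as higher (31.8%, against 11.3% of all genes) and 3 as lower (13.6%, against 9.37%). Another 12 did not pass, and the family's median was 0.14. The largest difference of any of the 81 genes was that of acs-2, which encodes a mitochondrial synthetase known to be raised by fasting through the nuclear receptor NHR-49. It stood at -4.41, -3.80 and -3.46 in preps 1, 2 and 3, a mean of -3.89 that is 14.8-fold lower with a 95% confidence interval of -4.47 to -3.31 (limma adjusted p = 8.97e-06). Only 3 of the 15119 genes had a lower mean. Next among the lower synthetases, acs-11 stood at -1.89, -1.75 and -1.94 in preps 1, 2 and 3 (3.63-fold lower, limma adjusted p = 3.22e-04). The 3 preps lay within 0.20 of each other for this gene. The third, acs-17, was at -0.97, -0.91 and -1.24 (2.06-fold lower, limma adjusted p = 0.0108). All 3 kept their calls whichever prep was left out.

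At the other end, acs-10 stood at 3.37, 2.71 and 2.54 in preps 1, 2 and 3, a mean of 2.87 that is 7.33-fold higher (limma adjusted p = 3.70e-05). No other gene of the 81 had a higher mean. The synthetase gene acs-1, whose product activates monomethyl branched-chain fatty acids, was at 2.37, 1.81 and 0.98 (3.30-fold higher, limma adjusted p = 0.00181). Prep 1 was the highest for both of these genes and prep 3 the lowest. For acs-18 the values were 2.54, 0.73 and 1.78 (limma adjusted p = 0.00380), and for acs-6 they were 1.51, 1.204 and 2.02 (limma adjusted p = 0.00144). Prep 2 was the lowest for both. The remaining 3 higher synthetases lay close together: acs-5 at 1.27 ± 0.19, acs-15 at 1.13 ± 0.52 and acs-14 at 1.01 ± 0.15. Without prep 1, acs-15 at 0.93 and acs-14 at 0.95 no longer passed.

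The 12 synthetases that did not pass ran from acs-4 at 0.87 ± 0.81 to acs-19 at -0.77 ± 0.77. ACS-4 is known for a role in germ cells, where it supplies an acyl group for protein myristoylation, and its values were 1.76, 0.68 and 0.17 in preps 1, 2 and 3. Prep 1 was well above the others, and without prep 3 acs-4 passed at 1.22. The gene acs-19, an acetyl-CoA synthetase gene, spread as widely, with -0.08, -0.63 and -1.61. For acs-20 and acs-22, which encode fatty acid transport proteins needed for the surface barrier of the cuticle, the means were -0.23 ± 0.81 and 0.39 ± 0.51. The signs differed between preps for both, with acs-20 at -1.14 in prep 1 and at 0.05 and 0.41 in preps 2 and 3. A role in fat storage is known for acs-3, which stood at 0.35 ± 0.45, and acs-7, which acts in the assembly of ascarosides, was at -0.08 ± 0.74. Like acs-19, 4 further genes were below 0 on all 3 arrays without passing: acs-21 at -0.76 ± 0.35 (limma adjusted p = 0.0554), acs-24 at -0.57 ± 0.23, acs-12 at -0.56 ± 0.46 and acs-16 at -0.55 ± 0.56. The others were acs-23 at 0.71 ± 0.48 and acs-25 at -0.42 ± 0.78.

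Of 4 carnitine palmitoyltransferase genes, 1 passed (25%, against 20.7% of all genes). It was cpt-5, known as a target of NHR-49, at 1.09, 0.14 and 1.54 in preps 1, 2 and 3 (1.90-fold higher, limma adjusted p = 0.0463). Prep 2 was near 0, and the call was lost without prep 1 (0.84) or prep 3 (0.62), as well as with the arrays centred on their medians (adjusted p = 0.0530) or weighted by quality (adjusted p = 0.0591). The inner membrane enzyme gene cpt-2 was the steadiest of the 81, at 0.61, 0.67 and 0.61, with an SD of 0.04, yet did not pass (limma adjusted p = 0.0851). Its small SD counted for little, as limma draws the variance of each gene towards that of all genes tested. Both cpt-4 at -0.22 ± 0.22 and cpt-6 at -0.23 ± 0.34 had prep 2 just above 0 and the other preps below it.

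The thiolase genes, which act at the last step, were both higher. The mitochondrial thiolase gene kat-1, whose loss is known to raise fat stores together with defects of sensory cilia, stood at 1.94, 1.30 and 2.49 in preps 1, 2 and 3, a mean of 1.91 that is 3.75-fold higher with a 95% confidence interval of 1.30 to 2.52 (limma adjusted p = 7.22e-04). A further spot that the annotation assigns to kat-1 together with T02G5.4, and which was left out by the rule, gave 1.35, 1.11 and 1.97. Prep 3 was highest and prep 2 lowest on either spot. For acaa-2, another mitochondrial 3-ketoacyl-CoA thiolase gene, the values were 1.36, 0.87 and 1.15 (2.19-fold higher, limma adjusted p = 0.00753). Both thiolase calls held whichever prep was left out.

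**Figure D2:**
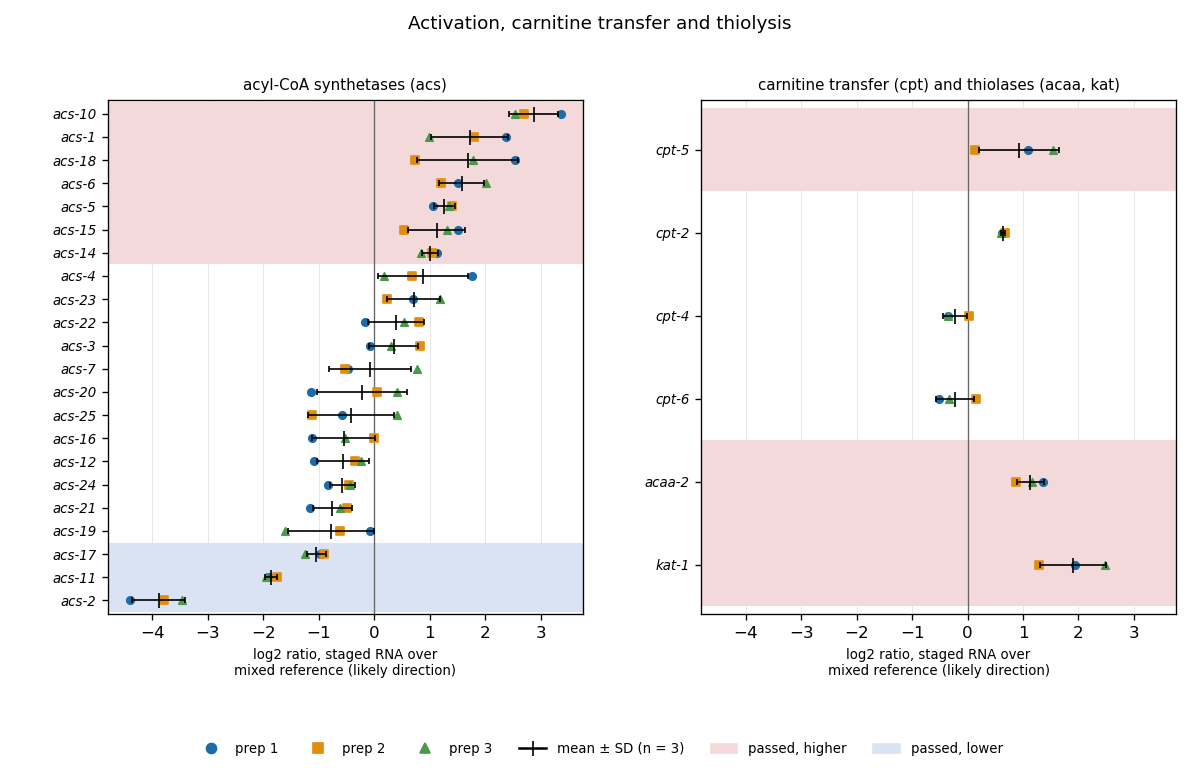
Log2 ratio (horizontal axis) of each acs gene (left panel) and of the cpt, acaa and kat genes (right panel). Symbols are the 3 preps, black bars the mean ± SD (n = 3), and shading marks genes that passed limma's test. The acs genes span from acs-2 at -3.89 to acs-10 at 2.87, and both thiolase genes lie above 1 in the mean.

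The mitochondrial cycle begins with the acyl-CoA dehydrogenases, and 0 of their genes were lower in limma's test, also at an unadjusted p under 0.05. Of 12 measured, 6 were higher (50%, against 11.3% of all genes) and 6 did not pass, and 11 of the 12 means were above 0. Without prep 1 the count of higher genes was 3. The highest, acdh-1, encodes the first enzyme of the propionate shunt, a route that worms switch on when vitamin B12 is low. Its values were 3.43, 1.55 and 3.02 in preps 1, 2 and 3, a mean of 2.67 that is 6.35-fold higher (limma adjusted p = 2.92e-04). The medium-chain type gene acdh-8 was at 2.35, 2.13 and 3.18 (5.87-fold higher, limma adjusted p = 9.85e-05), and acdh-5 at 2.54, 1.19 and 3.34 (5.12-fold higher, limma adjusted p = 8.63e-04). These 3 genes were lowest in prep 2, and every one of their 9 values was above 1. Their calls held whichever prep was left out.

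A second group of dehydrogenases lay near a log2 ratio of 1. The gene acdh-9 stood at 1.68, 0.78 and 1.27 in preps 1, 2 and 3 (limma adjusted p = 0.00643), acdh-13 at 1.46, 1.22 and 0.27 (limma adjusted p = 0.0299) and acdh-4 at 1.07, 0.51 and 1.30 (limma adjusted p = 0.0220). All 9 of these values were above 0, but the calls depended on the preps. Without prep 1, acdh-9 was at 1.02, acdh-13 at 0.75 and acdh-4 at 0.91, and none of the 3 passed. Without prep 2 acdh-13 at 0.87 did not pass, nor did acdh-4 at 0.79 without prep 3 or at 0.79 with each array centred within runs of neighbouring spots. The very long chain gene acdh-12 fell short at 0.78 ± 0.49 (limma adjusted p = 0.0594) and passed without prep 3 at 1.04. For acdh-11, known to act in adaptation to heat by limiting a fatty acid that switches on a desaturase gene, the values were 0.40, 0.55 and 0.44, which are close together but did not pass (limma adjusted p = 0.203).

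Among the other dehydrogenases, acdh-3 at 0.56 ± 0.62, the medium-chain type gene acdh-7 at 0.20 ± 0.51 and acdh-2 at 0.09 ± 0.61 were highest in prep 1 and did not pass. No gene of the 81 varied more between preps than acdh-6, at -2.13, -0.54 and 0.53 in preps 1, 2 and 3. Its mean was -0.72 ± 1.34, and without prep 3 it passed as lower at -1.34.

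Of 7 peroxisomal acyl-CoA oxidase genes, 5 were higher (71.4%, against 11.3% of all genes) and 0 were lower in limma's test, with 1 lower at an unadjusted p under 0.05. Without prep 2 or prep 3 the count of higher genes was 2. The 5 were acox-1.1 to acox-1.5, and their means lay in a narrow range. In preps 1, 2 and 3, acox-1.2 stood at 1.26, 0.95 and 1.46 (2.33-fold higher, limma adjusted p = 0.00495) and acox-1.3 at 1.12, 1.15 and 1.24 (2.25-fold higher, limma adjusted p = 0.00531). These 2 calls held whichever prep was left out. The others were acox-1.1 at 0.95 ± 0.26, acox-1.5 at 0.94 ± 0.45 and acox-1.4 at 0.86 ± 0.16. Their calls were near the threshold: acox-1.1 did not pass without prep 2 (0.97) or prep 3 (0.82), acox-1.5 without prep 2 (0.98) or prep 3 (0.70) or with centring within runs of spots (0.74), and acox-1.4 without prep 1 (0.81), prep 2 (0.94) or prep 3 (0.81).

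The genes acox-1.1, acox-1.2, acox-1.3 and acox-1.4 follow one another on chromosome I with no other protein-coding gene between them in RefSeq (assembly WBcel235), and each of the 4 had 2 spots. Spots of a gene gave means of 0.92 and 0.98 for acox-1.1, 1.23 and 1.21 for acox-1.2, 1.17 and 1.17 for acox-1.3 and 0.81 and 0.90 for acox-1.4. Within single preps the spots of a gene lay farther apart than these means. The acox-1.3 spots gave 0.89, 1.05 and 1.56 against 1.35, 1.24 and 0.93 in preps 1, 2 and 3, and the acox-1.2 spots gave 1.28, 0.66 and 1.75 against 1.23, 1.24 and 1.17, so the small SDs over preps of the averaged values do not show the spread between spots. Oxidases of this cluster are alike in sequence and may share signal on the array, so the 4 values are uncertain as single values. Away from the cluster, acox-3 was at -0.36, -0.43 and 0.17 in preps 1, 2 and 3. The X-linked acox-1.6 was at -1.91, -0.89 and 0.12, a mean of -0.89 that did not pass (limma adjusted p = 0.0888) and that passed as lower without prep 3 at -1.40.

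Of 9 ech hydratase genes, 1 passed as higher (11.1%), near the 11.3% of all genes tested. It was ech-6, at 1.84, 2.20 and 3.01 in preps 1, 2 and 3. The mean of 2.35 is 5.11-fold higher with a 95% confidence interval of 1.74 to 2.96 (limma adjusted p = 1.93e-04). Its product is the hydratase of the propionate shunt. In the mean over preps it lay just below acdh-5 among the 81 genes, and its call held whichever prep was left out. The genes ech-1.1 and ech-1.2, for the alpha subunit of the mitochondrial trifunctional protein, were above 0 on all arrays at 0.75 ± 0.25 (limma adjusted p = 0.0517) and 0.60 ± 0.27. With the arrays centred on their medians or within runs of spots, scaled or quantile normalized, ech-1.1 passed at 0.78, 0.96, 0.75 and 0.75. For ech-2 the values were 0.55, 2.05 and 0.31, so that its mean of 0.97 ± 0.94 rested on prep 2, and it passed without prep 3 at 1.30. The others were ech-4, whose product also has an acyl-CoA binding domain, at 0.55 ± 0.41, ech-5 at 0.15 ± 0.25 and ech-9 at 0.09 ± 0.10. Below 0 on every array were ech-8 at -0.40 ± 0.12 and ech-3 at -0.68 ± 0.16 (limma adjusted p = 0.0676). Although ech-8 and ech-9 are direct neighbours on chromosome IV, their 3 values did not overlap.

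The peroxisomal hydratase gene maoc-1 was at 0.70, 1.46 and 0.49 in preps 1, 2 and 3, a mean of 0.88 (1.84-fold higher, limma adjusted p = 0.0380). Prep 2 was the highest. The call was lost without prep 1 (0.97) or prep 2 (0.60) and with centring within runs of spots (0.77). Its neighbour on chromosome II, acdh-12, lay 4 spots away on the array.

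**Figure D3:**
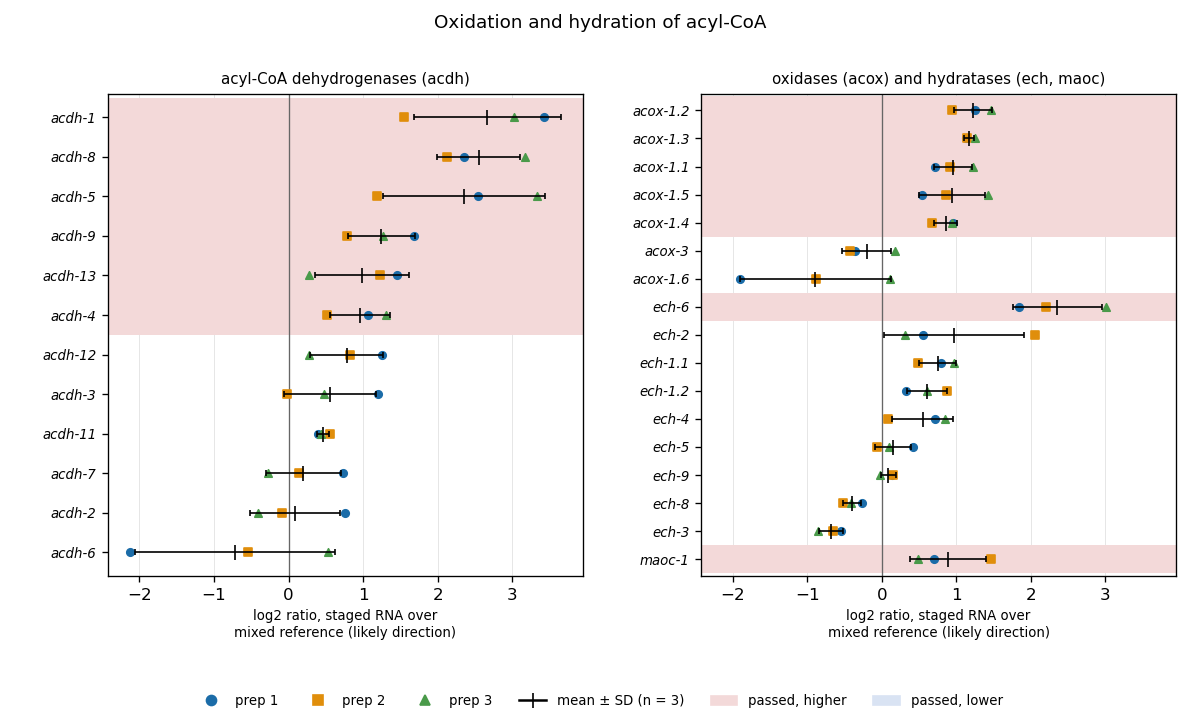
Log2 ratio (horizontal axis) of each acdh gene (left panel) and each acox, ech and maoc gene (right panel). Symbols are the 3 preps, black bars the mean ± SD (n = 3), and shading marks genes that passed limma's test. The 3 acdh genes at the top and ech-6 stand above 2 in the mean, acox-1.1 to acox-1.5 lie between 0.86 and 1.22, and acdh-6 and acox-1.6 spread widely over the preps.

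The dhs genes lay about evenly on either side of the reference. Of 24 genes, 3 passed as higher (12.5%) and 1 as lower (4.17%), near the 11.3% and 9.37% of all genes, and the median was -0.02. With prep 1 or prep 2 left out, 1 was higher. Without the dhs genes, 23 of 57 genes were higher (40.4%) and 3 lower (5.26%). The peroxisomal dehydrogenase gene dhs-28, which acts in beta-oxidation after maoc-1, was at 1.202, 0.99 and 0.67 in preps 1, 2 and 3 (1.93-fold higher, limma adjusted p = 0.0190). Without prep 1 (0.83) or prep 2 (0.93) it did not pass. The highest of the family was dhs-23, at 1.32, 1.45 and 1.07 (2.43-fold higher, limma adjusted p = 0.00349), and it passed whichever prep was left out. The third, dhs-25, stood at 0.60, 0.80 and 1.25 (limma adjusted p = 0.0288) and did not pass without prep 1 (1.03), prep 2 (0.92) or prep 3 (0.70).

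The lower gene, dhs-26, stood at -2.81, -1.45 and -2.18 in preps 1, 2 and 3, a mean of -2.15 that is 4.43-fold lower with a 95% confidence interval of -2.78 to -1.51 (limma adjusted p = 4.30e-04). Every prep was far below 0. Another 6 dhs genes were below 0 on all arrays without passing, with adjusted p between 0.0504 and 0.114. They were dhs-16, for a steroid dehydrogenase of dafachronic acid synthesis, at -0.75 ± 0.24 (limma adjusted p = 0.0504), dhs-30 at -0.73 ± 0.10, dhs-18 at -0.72 ± 0.06, dhs-31 at -0.82 ± 0.58, dhs-29 at -0.71 ± 0.31 and dhs-17 at -0.62 ± 0.38. With the arrays quantile normalized dhs-16, dhs-30 and dhs-18 passed as lower, at -0.74, -0.73 and -0.74, and without prep 3 dhs-31 did, at -1.05. The lipid droplet protein gene dhs-3, abundant in the intestine, was at 0.28, -0.47 and 0.62, a mean of 0.14 ± 0.56. The sugar reductase gene dhs-21 was at 0.36 ± 0.25. The remaining 12 dhs genes that did not pass ran from dhs-6 at 0.66 ± 0.04 to dhs-2 at -0.39 ± 0.61, and dhs-22, at 0.39, 1.11 and -0.77, was the most variable of them.

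**Figure D4:**
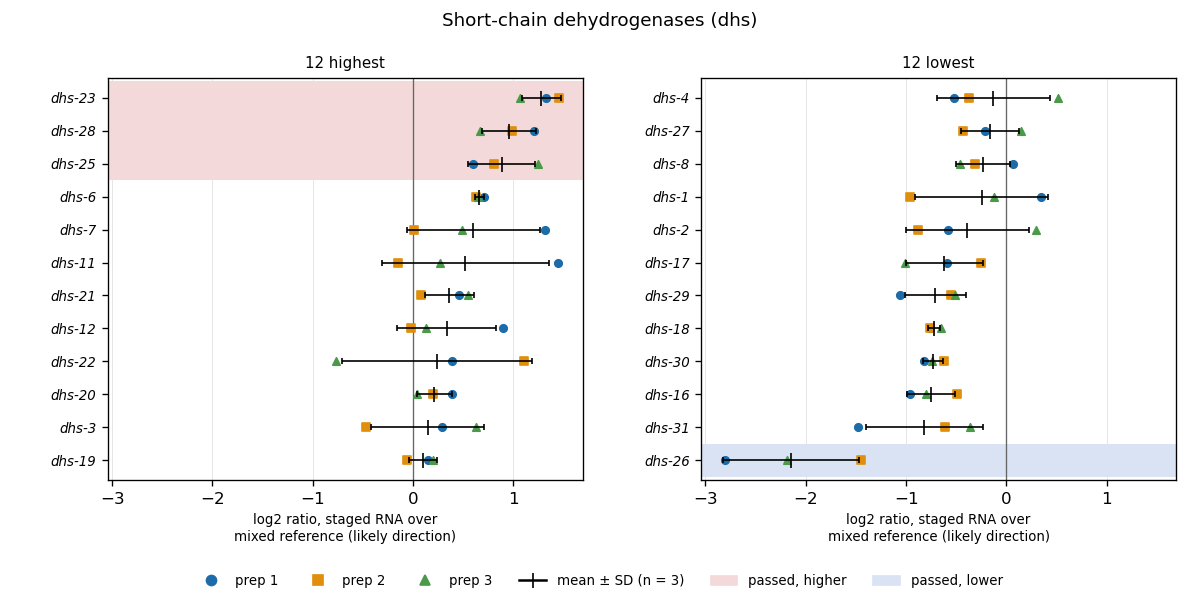
Log2 ratio (horizontal axis) of the 24 dhs genes, the 12 highest on the left and the 12 lowest on the right. Symbols are the 3 preps, black bars the mean ± SD (n = 3), and shading marks genes that passed limma's test. Most genes lie within 1 of 0 in the mean, with dhs-26 at -2.15 apart from the rest.

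Genes of the propionate shunt outside the naming rule were compared with acdh-1 and ech-6. The gene lists used here and below were chosen with earlier results of these data known, so their counts only describe the lists. The shunt breaks propionyl-CoA down without vitamin B12. Of its 5 genes, 4 were higher (80%, against 11.3% of all genes), and these 4 passed whichever prep was left out. The hydrolase gene hach-1 was at 1.56, 1.30 and 2.57 in preps 1, 2 and 3, a mean of 1.81 that is 3.51-fold higher (limma adjusted p = 0.00121). The dehydrogenase gene hphd-1, next in the route, was at 2.07, 1.79 and 2.19, a mean of 2.02 that is 4.06-fold higher (limma adjusted p = 2.07e-04). The last, the semialdehyde dehydrogenase gene alh-8, was above 0 on each array at 0.51 ± 0.21 but did not pass (limma adjusted p = 0.172). Among 7 genes of the route that breaks propionate down through the vitamin B12-dependent mutase and of vitamin B12 use, 1 passed as higher and 1 as lower. Counting both directions, 28.6% of these genes passed, against 20.7% of all genes. The methylmalonyl-CoA epimerase gene mce-1, whose enzyme acts before the mutase, was lower at -1.05, -1.67 and -1.01. The methionine synthase gene metr-1, which uses vitamin B12 but does not break down propionate, was higher at 0.59, 0.64 and 2.16; it rested on prep 3, and it did not pass without prep 1 (1.40) or prep 3 (0.62). The carboxylase genes pcca-1 at -0.41 ± 0.62 and pccb-1 at -0.46 ± 0.55 and the mutase gene mmcm-1 at 0.15 ± 1.08 did not pass. Of the nuclear receptor genes known to switch on the shunt, nhr-68 was at 0.58, 0.48 and 1.53 (limma adjusted p = 0.0476) and nhr-10 at -1.23, -0.69 and -0.42 (limma adjusted p = 0.0532). The call of nhr-68 was lost without prep 1 (1.00) or prep 3 (0.53) and with median centring of the arrays (adjusted p = 0.0551), and nhr-10 passed as lower without prep 3 (-0.96).

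Genes that break down branched-chain amino acids were mostly higher. Of 7 measured, 6 were higher (85.7%, against 11.3% of all genes) and 1 did not pass, with a median of 1.27. This list, too, was chosen with earlier results of these data known. Isovaleryl-CoA dehydrogenase is a relative of the acdh enzymes, and its gene ivd-1 was at 2.17, 1.44 and 2.21 in preps 1, 2 and 3 (3.84-fold higher). The methylcrotonyl-CoA carboxylase gene mccc-1 was at 1.52, 2.60 and 1.60, the aminotransferase gene bcat-1 at 1.27 ± 0.31, and the ketoacid dehydrogenase genes bckd-1A and bckd-1B at 1.15 ± 0.19 and 1.43 ± 0.27. The shared subunit gene dld-1 was at 1.05 ± 0.54 and lost its call without prep 1 (0.74), and dbt-1 at -0.33 ± 0.11 did not pass.

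Genes of the peroxisomal route of ascaroside synthesis were higher at its oxidase, hydratase, dehydrogenase and thiolase steps. Of 9 genes, 7 were higher (77.8%, against 11.3% of all genes) and 0 were lower in limma's test (also 0 lower at an unadjusted p under 0.05). The 7 were acox-1.1, acox-1.2, acox-1.3, acox-1.4, maoc-1, dhs-28 and the thiolase gene daf-22. The last was at 0.48, 1.56 and 0.78 in preps 1, 2 and 3 (1.92-fold higher, limma adjusted p = 0.0312), and like maoc-1 it was highest in prep 2 and did not pass without it (0.63). The other 2 genes, acox-3 and acs-7, did not pass. Without prep 1, 2 or 3, the count of higher genes was 4, 2 or 5. All 7 genes were above 0 on every array, so their means had to stay above 0 with any prep left out. As acox-1.1 to acox-1.4 may share signal on the array, they may not count as separate genes. Without prep 2 the calls left were those of acox-1.2 and acox-1.3, both at the oxidase step. The means of the 7 higher genes lay between 0.86 and 1.22. Genes for the assembly of peroxisomes and for transport across their membrane lay near all genes tested: of 17, 2 were higher (11.8%, against 11.3% of all genes) and 15 did not pass, with a median of 0.06. The 2 were the transporter genes pmp-1 at 1.43 ± 0.79 and pmp-5 at 1.40 ± 0.51.

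**Figure D5:**
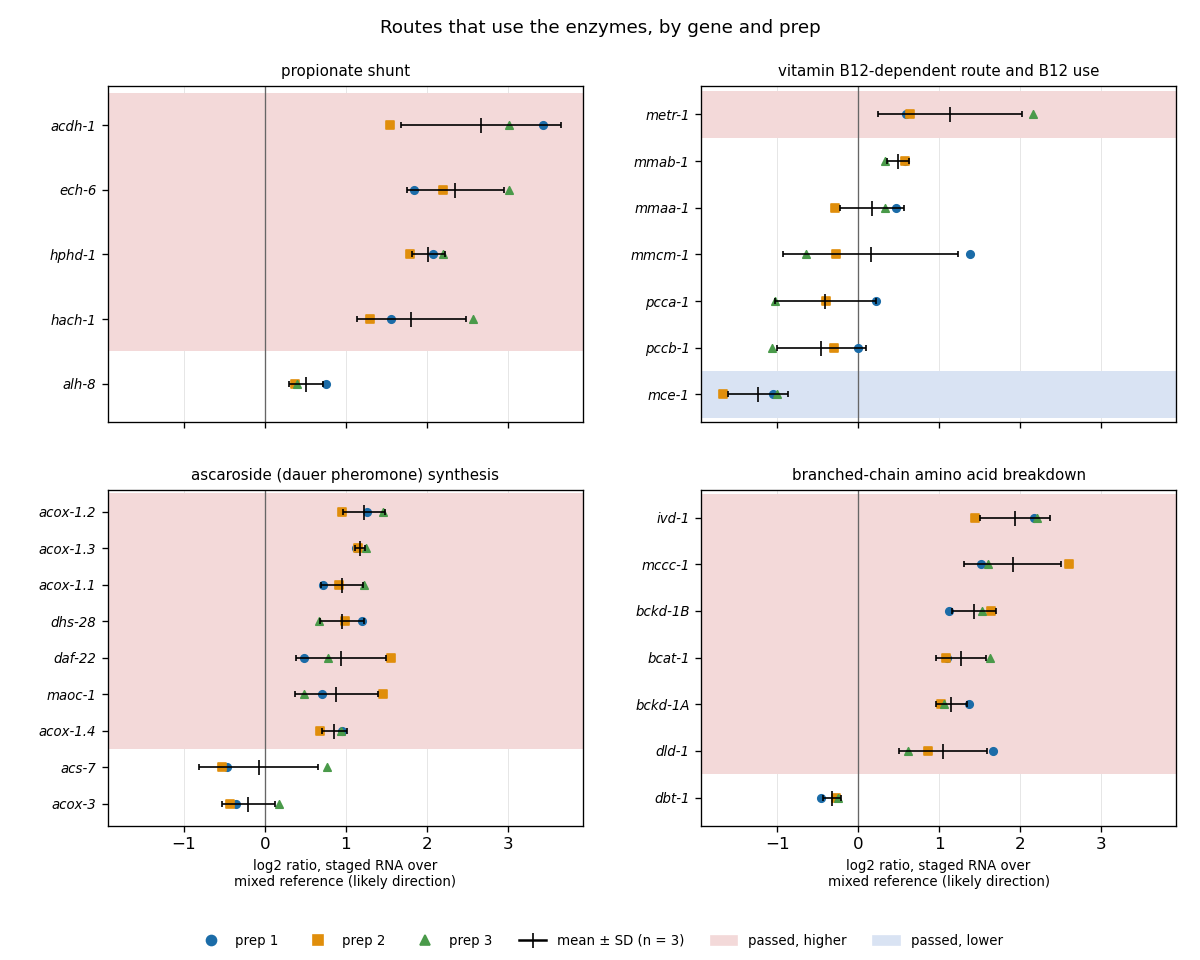
Log2 ratio (horizontal axis) of genes of 4 routes: the propionate shunt, the vitamin B12-dependent route with genes of vitamin B12 use, ascaroside synthesis and branched-chain amino acid breakdown. Symbols are the 3 preps, black bars the mean ± SD (n = 3), and shading marks genes that passed limma's test. In the shunt 4 of 5 genes lie above 1 on every array, while the genes of the vitamin B12-dependent route scatter around 0 with mce-1 at -1.24.

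Other genes of beta-oxidation and of steps next to it, outside the naming rule, moved both ways, as the synthetases did. The list holds icl-1 of the glyoxylate cycle and ivd-1 of branched-chain amino acid breakdown, so its shares are not of beta-oxidation alone. Of the 10 with a value, 4 passed as higher (40%, against 11.3% of all genes) and 2 as lower (20%, against 9.37%). The hydroxyacyl-CoA dehydrogenase gene hacd-1 was lower, at -1.08, -1.38 and -1.81 in preps 1, 2 and 3 (2.68-fold lower, limma adjusted p = 0.00240). The glyoxylate cycle gene icl-1, whose product turns acetyl-CoA from fat towards sugar, was lower too, at -1.67, -1.08 and -1.40 (2.61-fold lower, limma adjusted p = 0.00251). The 2,4-dienoyl-CoA reductase genes, needed for unsaturated chains, differed among themselves. While decr-1.2 was at 2.07, 1.56 and 2.35 (3.98-fold higher) and decr-1.3 at 1.14, 0.88 and 3.15, the 3 values of decr-1.1 were -0.41, -0.42 and -0.44, and it did not pass. Without prep 3, decr-1.3 stood at 1.01 and still passed. The other 2 higher genes were ivd-1 and daf-22, given above. The gene let-721, for the dehydrogenase that passes electrons from the acdh enzymes to the respiratory chain, was at 0.24 ± 0.27.

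Genes known as targets of NHR-49 did not move together. Of 7 measured, acs-2 and icl-1 were lower, cpt-5 was higher, and ech-1.1, the desaturase genes fat-5 at -0.23 ± 0.82 and fat-7 at -0.61 ± 0.81 and the flavin monooxygenase gene fmo-2 at -0.22 ± 0.25 did not pass. Counting both directions, 42.9% of the 7 passed, against 20.7% of all genes. The gene nhr-49 itself was at 0.18, 0.71 and -0.36 in preps 1, 2 and 3 and did not pass.

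Across the 81 genes, Pearson's r between pairs of arrays lay between 0.79 and 0.83 (Spearman's rho between 0.73 and 0.79), against r between 0.65 and 0.68 across all genes tested. The points are genes that share the arrays and the reference RNA, and r depends on the range of the values, so these are descriptions. The median SD over preps was 0.45, against 0.39 over all genes. Prep 1 gave the highest value for 27 of the genes, prep 2 for 21 and prep 3 for 33.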

How the data were processed

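The deposited values were log2 ratios of the channels of each array, 1 per spot. The base was checked on the deposited values: for every ratio under 0.6, 2 to the power of the value fell on a whole multiple of 0.001 (within 1% of that step) on all 3 arrays. How the authors scanned, corrected and normalized the arrays, and with which dyes, is not given in the sources used here. With no intensities, dim and saturated spots stayed in, and 3 arrays set the precision. Values were missing for 73, 175 and 127 spots in preps 1, 2 and 3. The array medians were 0.04, -0.08 and -0.06, and whether the authors centred the arrays is unknown. Staged RNA was in channel 2 on each array, so channel and stage cannot be told apart.

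Names came from the platform's annotation, updated through RefSeq gene identifiers: 15655 spots had 1 gene, 198 several and 4147 none listed. Spots of a gene were averaged. Genes with a value on every array were fitted with limma (version 3.58.1, R 4.3.3; lmFit with an intercept, eBayes, two-sided), which was tested on simulated data. The test leaves out the spread of the reference, a single common RNA. Alternatives changed the centring, scale, array weights, variance prior, spot handling, missing values and thresholds, and left out each prep. Every member could be named; of the other lists, genes that passed and the extremes were. The members and lists were chosen with earlier results of these data known.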

Additional observations from a re-analysis of the deposited data

How the results depend on the processing

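All 30 calls among the fatty acid genes kept their sign under the alternatives tried, and 17 passed under each. Each of the 30 had 1 sign on all arrays, so leaving out a prep could not turn it. The other thresholds, the test against a fold and the changed variance prior reused the same mean. In these settings a kept sign shows nothing further. The count of 30, 26 higher and 4 lower, was 18 (15 higher) at an adjusted p threshold of 0.01 and 46 (13 lower) at 0.1. At 0.01, 10.6% of all genes passed and 6.3% were higher. At 0.1, 33 of the 81 were higher, against 14.8% of all genes, and 13 were lower, against 13.4%. Against a fold of 1.2, 17 of the 81 were higher, against 7.65% of all genes. With the arrays scaled to 1 spread or quantile normalized, 7 of the 81 were lower, against 9.9% or 9.99% of all genes. Leaving out each prep gave 20 to 30 genes, 16 to 23 higher and 4 to 7 lower. Of all genes, 7.24% to 10.6% were then higher and 4.39% to 8.63% lower. Over all genes, 3126 passed, 1605 at 0.01, 1983 against a fold of 1.2, and 1759 to 2904 with a prep left out. Centring within runs of neighbouring spots kept 27 of the 30 calls and added 5. Among the 81, sign changes occurred only in genes that did not pass, at most 5 under any alternative. With a prep left out they could occur nowhere else. The cause of these changes was not tested, except that fewer samples or another threshold define some of them. No paired analysis was possible because all samples belong to 1 group.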

Other observations

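Of 9 lipase and lipid droplet genes of fat release, 1 passed as higher and 1 as lower, a called share of 22.2% that is near the 20.7% of all genes tested. The lysosomal-type lipase gene lipl-5 was higher at 2.71, 2.43 and 2.16 in preps 1, 2 and 3, a mean of 2.43 that is 5.41-fold higher, and lipl-4, for a lipase known from long-lived worms without a germ line, was lower at -1.19, -0.58 and -0.97. The call of lipl-4 was lost without prep 1 (-0.77) or prep 3 (-0.89) and with centring within runs of spots (-0.55). The triglyceride lipase gene atgl-1 was at -0.06 ± 0.55.

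Of 17 genes of fatty acid and fat synthesis, 2 passed as higher (11.8%, against 11.3% of all genes) and 1 as lower. The count of higher genes was 6 without prep 3, 1 without prep 1 or prep 2, and 5 with centring within runs of spots. The acetyl-CoA carboxylase gene pod-2 was at 1.07, 1.70 and 0.17 in preps 1, 2 and 3 and lost its call without prep 1 (0.93) or prep 2 (0.62). Of the acyltransferase genes, acl-13 was higher at 1.40 ± 0.32 and acl-12 lower at -0.87 ± 0.38, the last without a call when prep 1 (-0.80) or prep 3 (-0.72) was left out. The fatty acid synthase gene fasn-1 was at 0.25 ± 0.25. Of 14 regulators of fat metabolism, 2 passed (14.3%, against 20.7% of all genes). The gene nhr-68 was higher and hlh-11 at -0.90 ± 0.41 was lower, the last without a call when prep 1 (-0.71) or prep 2 (-0.87) was left out. A spot that the annotation assigns to both daz-1 and dhs-5 stood at 1.13, 0.22 and 0.09.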
